A study of Mus musculus with 6 samples.

Results

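The genes described here are 10 cadherins of the mouse brain, Cdh2, Cdh4, Cdh6, Cdh7, Cdh8, Cdh9, Cdh10, Cdh11, Cdh12 and Cdh13, taken by symbol from the 54232 genes counted in each library. Each symbol matched 1 row. The members were chosen by family name with earlier results of these libraries known, their CPM per library among them, so the levels, fold changes and calls of its members are given as descriptions. All 10 passed the filter on low counts, which kept 17299 genes, and each had at least 157 counts in every library.

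The RNA came from cortical neurons of wildtype CD1 mice, an outbred stock that the labels enter as a cell line. The 3 groups, named control, PA and PA + PS2, had 2 libraries each, numbered repeat 1 and repeat 2. In the library names the control is PDL, PA is IKVAV, a peptide sequence of laminin, and PA + PS2 is IKVAV plus PEDOT-S, PEDOT being a conducting polymer. The labels do not expand PS2. The treatment label reads peptide amphiphile, a self-assembling peptide joined to a lipid tail, in all 6 libraries, the control included. The library names carry T1 in every repeat 1, and T3 (control), T2 (PA) and T12 (PA + PS2) in repeat 2. The labels give neither the age of the mice nor the culture time or dose. They leave unsaid if the repeats came from separate cultures or mice, and the p-values below therefore measure the spread between these libraries, which may be technical.

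Cadherins are calcium-dependent adhesion proteins. Their outer domains bind cadherins on the facing cell, and the inner tail of classical cadherins holds p120-type and beta-catenins, which connect through alpha-catenin to actin. In the cortex different neurons and layers carry different sets of them, and the sets are known for roles in cell sorting, axon targeting and synapse formation. Cdh2 (N-cadherin) and Cdh4 (R-cadherin) are type I classical cadherins, and Cdh6 to Cdh12 are type II. Cdh13 (T-cadherin) has no inner tail and is held by a lipid anchor, so it is a classical cadherin by its outer domains alone.

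Libraries held 30714311 to 33923681 counts. The members had between 157 counts (Cdh9 in control repeat 2) and 13444 counts (Cdh2 in control repeat 2). Levels are given as CPM, counts per 1e6 counts after TMM scaling. The repeats of a group differed beyond sampling noise, with a chi-square per degree of freedom of 10.6 to 15.2. The first principal component (33.5% of the variance) separated repeat 1 from repeat 2 in all 3 groups. On the second (29.5%) the PA + PS2 libraries lay at 16.3 and 51.4, and the control and PA libraries at -28.3 to -10.5. Neuron markers (Rbfox3, Tubb3, Map2, Snap25 and Syn1) summed to 4756 to 5173 CPM, with excitatory and inhibitory markers in every library. Markers of fibroblast, meningeal and mural cells, astrocytes, the oligodendrocyte lineage and progenitors were present too, so the libraries were not of neurons alone. In such bulk RNA, fewer cells of a type and less RNA per cell cannot be told apart.

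Per length, the mRNA of the 10 members was led by Cdh2, the main cadherin of neural tissue. It stood at 43.4 to 53.7 CPM per kb of exon over the 6 libraries (mean 47.2). Cdh13 was next at 19.1 to 23.0 CPM per kb (mean 20.7). The ranges of these genes did not overlap with each other or with any other member. Below them, Cdh4 (mean 11.5 CPM per kb), Cdh8 (9.88), Cdh11 (8.81), Cdh6 (7.69) and Cdh10 (6.97) each overlapped their neighbours in this order. Cdh12 (3.04 CPM per kb), Cdh9 (1.98) and Cdh7 (1.25) formed the low end, below every library of the 7 other genes, and their ranges also overlapped from neighbour to neighbour. The order of the middle genes depended on the length used. With the longest transcript in place of all exons Cdh10 ranked 3 of 10 at 18.6 CPM per kb, Cdh4 ranked 6 at 13.1, and Cdh9 rather than Cdh7 was last.

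**Figure D1:**
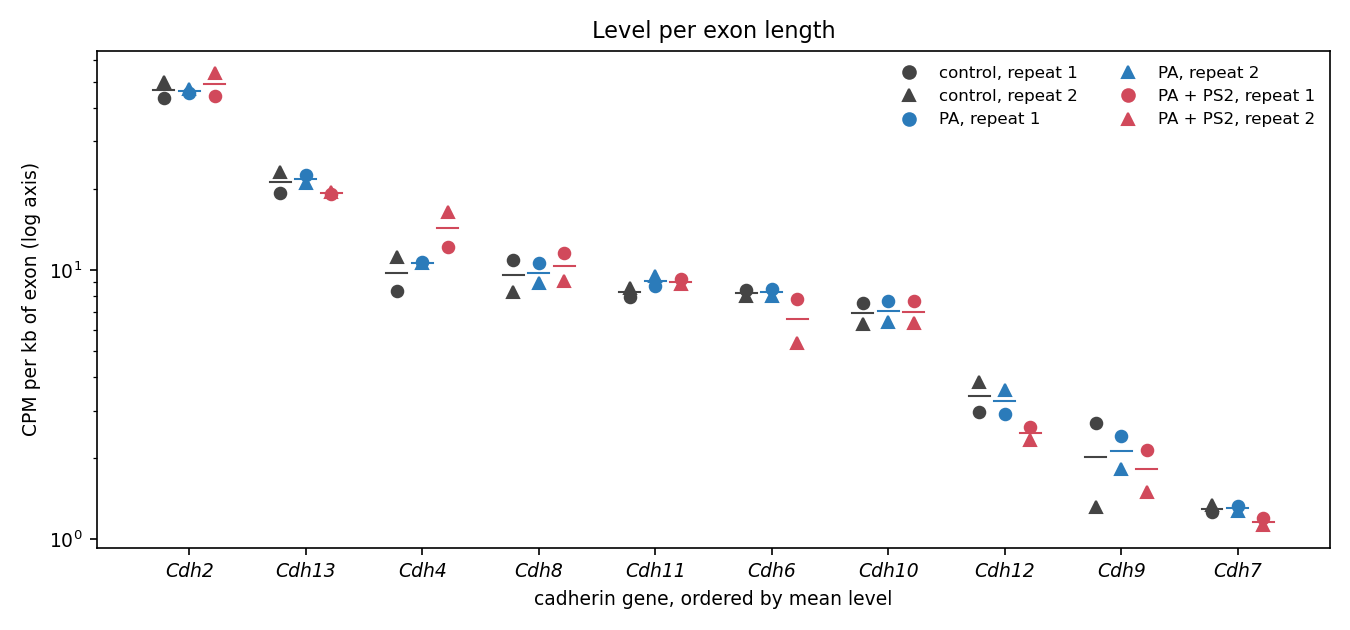
Level of the 10 cadherins per kb of exon (log axis), 1 symbol a library, with a bar at each group's mean. Cdh2 and Cdh13 lie above all other members, and Cdh12, Cdh9 and Cdh7 lie lowest, at means of 3.04, 1.98 and 1.25 CPM per kb.

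The members' summed level was nearly the same in all groups, 974 to 1058 CPM in the control, 1023 to 1050 CPM in PA and 1013 to 1064 CPM in PA + PS2. The make-up of this sum differed more. Cdh4 made up 6.24% and 7.63% of it in the control libraries, 7.37% and 7.49% under PA, and 8.70% and 11.2% under PA + PS2. Cdh6 made up 7.79% and 6.82% in the control libraries, 7.33% and 7.06% under PA, and 6.96% and 4.56% under PA + PS2. Cdh2 took 34.9% to 40.7% in any library, and Cdh13 took 20.6% to 24.4%.

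**Figure D2:**
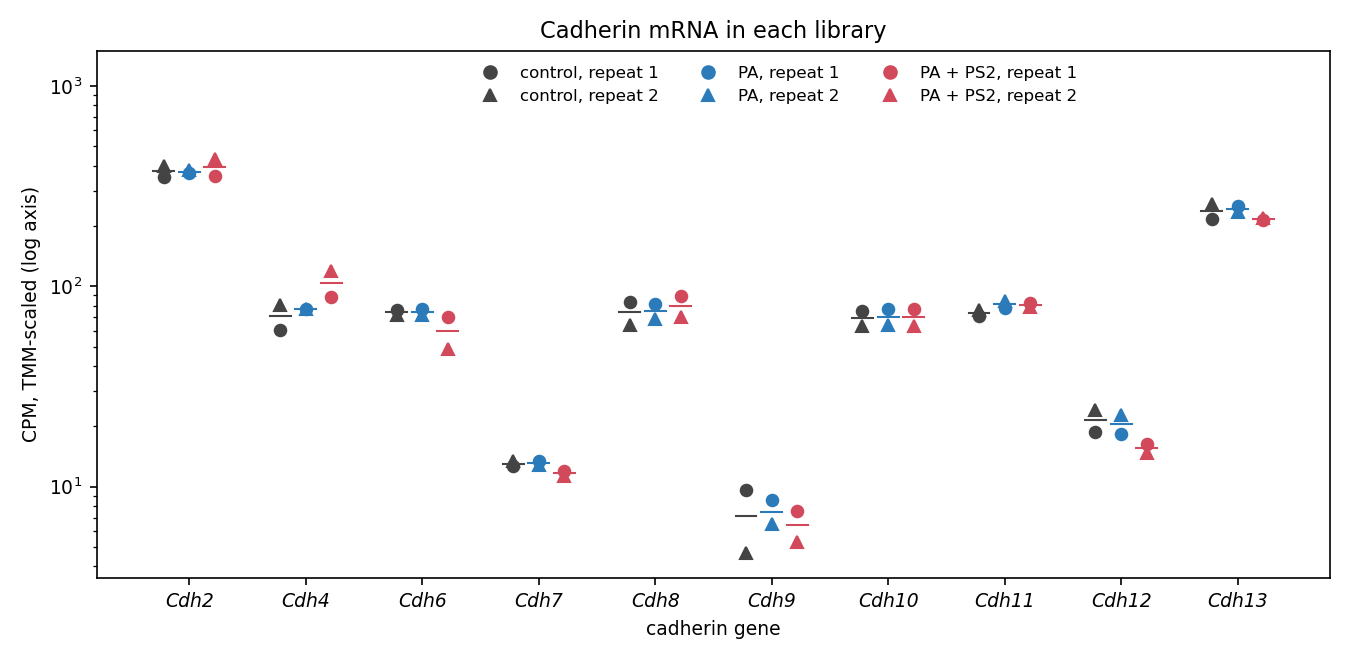
CPM of the 10 cadherins in each library (log axis). Circles are repeat 1, triangles repeat 2, colours the groups and bars the group means. Cdh4 is highest in the libraries of PA + PS2 (88.1 and 119 CPM), while Cdh6, Cdh7 and Cdh12 are lowest there.

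The first comparison, PA against control, sets the cultures named for the laminin peptide beside those named PDL. Fitted differences of the 10 cadherins were small, between -0.07 and 0.14 on the log2 scale. The largest fitted difference was that of Cdh11, a type II cadherin also made by mesenchymal cells. Cdh11 was at 70.9 and 76.5 CPM in the control and at 77.8 and 84.5 CPM in PA (log2 fold change 0.14, SE 0.09). Both PA libraries were above both control libraries, by a small margin. The type I Cdh4 and Cdh2 stood at log2 fold changes of 0.12 and -0.01, and Cdh13 at 0.04. The other type II genes stood at 0.07 (Cdh9), 0.03 (Cdh8), 0.02 (Cdh10), 0.01 (Cdh6), 0.00 (Cdh7) and -0.07 (Cdh12). Cdh11 was the only member of 10 whose groups did not overlap with PA higher, and no member's groups were apart with PA lower. Over all genes tested, 12.1% were apart with PA higher and 9.69% with PA lower. Within both repeats 3 members were higher in PA (Cdh6, Cdh10 and Cdh11) and 1 was lower (Cdh12), beside 24.5% and 20.5% of all genes. No member passed edgeR's test, with or without the repeat number as a block (0% of all genes in both models), and none had an unadjusted p under 0.05. Of the 17299 genes, 138 had an unadjusted p under 0.05 without the block and 323 with it, and DESeq2 and limma-voom called no member either. The members' median log2 fold change was 0.02, beside 0.01 over all genes tested.

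The second comparison, PA + PS2 against control, gave the members their widest spread, from Cdh12 at the low end to Cdh4 at the high end. Cdh4 was at 60.8 and 80.7 CPM in the control, 77.4 and 76.7 CPM in PA, and 88.1 and 119 CPM in PA + PS2. Both libraries of PA + PS2 were above the other 4. The means were 70.8 ± 14.1 CPM in the control and 103.6 ± 21.9 CPM in PA + PS2 (SD, n = 2 each), a 1.46-fold difference (log2 fold change 0.55, SE 0.17). Within repeat 1 the log2 ratio was 0.54, and within repeat 2 it was 0.56. These ratios lay closer to each other than those of Cdh6 or Cdh12, described next.

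Without a block, edgeR called no gene at all in this comparison (0% of all genes, smallest adjusted p 0.270, with 1179 genes at an unadjusted p under 0.05), and Cdh4 had an adjusted p of 0.646. Cdh4 and Cdh12 were the 2 members at an unadjusted p under 0.05, and DESeq2 and limma-voom without a block called no member (adjusted p of Cdh4 0.135 in DESeq2). With the repeat number as a block, Cdh4 rose at an adjusted p of 0.0423 (log2 fold change 0.55, SE 0.10). It was then the 1 member called, among 117 genes or 0.676% of those tested (0.139% higher and 0.538% lower). With the block, DESeq2 gave Cdh4 an adjusted p of 0.00182, and edgeR with a stricter filter gave 0.0770. Leaving out 1 library with the block in edgeR gave log2 fold changes of 0.45 and 0.65 without control repeats 1 and 2. They were 0.55 and 0.54 without PA repeats 1 and 2, and 0.66 and 0.42 without PA + PS2 repeats 1 and 2. The call was kept in some of these fits and lost in others, and each leaves a group with 1 library.

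Cdh12 and Cdh6, both type II cadherins with genes on chromosome 15, lay on the other side. Cdh12 was at 18.7 and 24.2 CPM in the control, 18.3 and 22.7 CPM in PA, and 16.4 and 14.7 CPM in PA + PS2. Both libraries of PA + PS2 were below the other 4. The log2 fold change against the control was -0.46 (SE 0.17, adjusted p 0.688 without the block and 0.194 with it), with within-repeat ratios of -0.19 and -0.72. Cdh6 was at 75.9 and 72.2 CPM in the control, 76.9 and 72.2 CPM in PA, and 70.5 and 48.5 CPM in PA + PS2. Its low value came mostly from repeat 2 of PA + PS2, the within-repeat ratios being -0.11 and -0.58 (log2 fold change -0.32, SE 0.16, adjusted p 0.796 without the block and 0.233 with it). Neither gene passed in either model.

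The other members differed less. Cdh7, a type II cadherin, was at 12.6 and 13.4 CPM in the control, 13.3 and 12.8 CPM in PA, and 11.99 and 11.3 CPM in PA + PS2 (log2 fold change against the control -0.16, SE 0.14). The PA + PS2 libraries were again the lowest of the 6. Cdh13 was at 216 and 258 CPM in the control, 253 and 236 CPM in PA, and 214 and 219 CPM in PA + PS2. The PA + PS2 libraries lay within or just below the spread of the controls (log2 fold change -0.13, SE 0.10). Cdh11 was at 82.3 and 78.6 CPM in PA + PS2, above both control libraries and inside the span of PA (log2 fold change against the control 0.13, SE 0.09). Cdh2, by far the most abundant member, was at 350.2 and 400.4 CPM in the control, 366 and 379 CPM in PA, and 356 and 433 CPM in PA + PS2. Its groups overlapped, and its log2 fold change was 0.07 (SE 0.11). Cdh8, Cdh9 and Cdh10 also overlapped between groups, at log2 fold changes of 0.11 (SE 0.17), -0.14 (SE 0.36) and 0.02 (SE 0.14).

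In PA + PS2 against control, the groups of 2 members did not overlap with PA + PS2 higher (Cdh4 and Cdh11), where 16.6% of all genes tested did so. The groups of 3 did not overlap with PA + PS2 lower (Cdh6, Cdh7 and Cdh12), where 17.1% of all genes did so. These counts were the same with library totals in place of TMM. Within both repeats 5 members were higher in PA + PS2 (Cdh2, Cdh4, Cdh8, Cdh10 and Cdh11) and 4 were lower (Cdh6, Cdh7, Cdh12 and Cdh13), beside 29.7% and 28% of all genes. The members' median log2 fold change was -0.06, beside 0.01 over all genes tested.

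**Figure D3:**
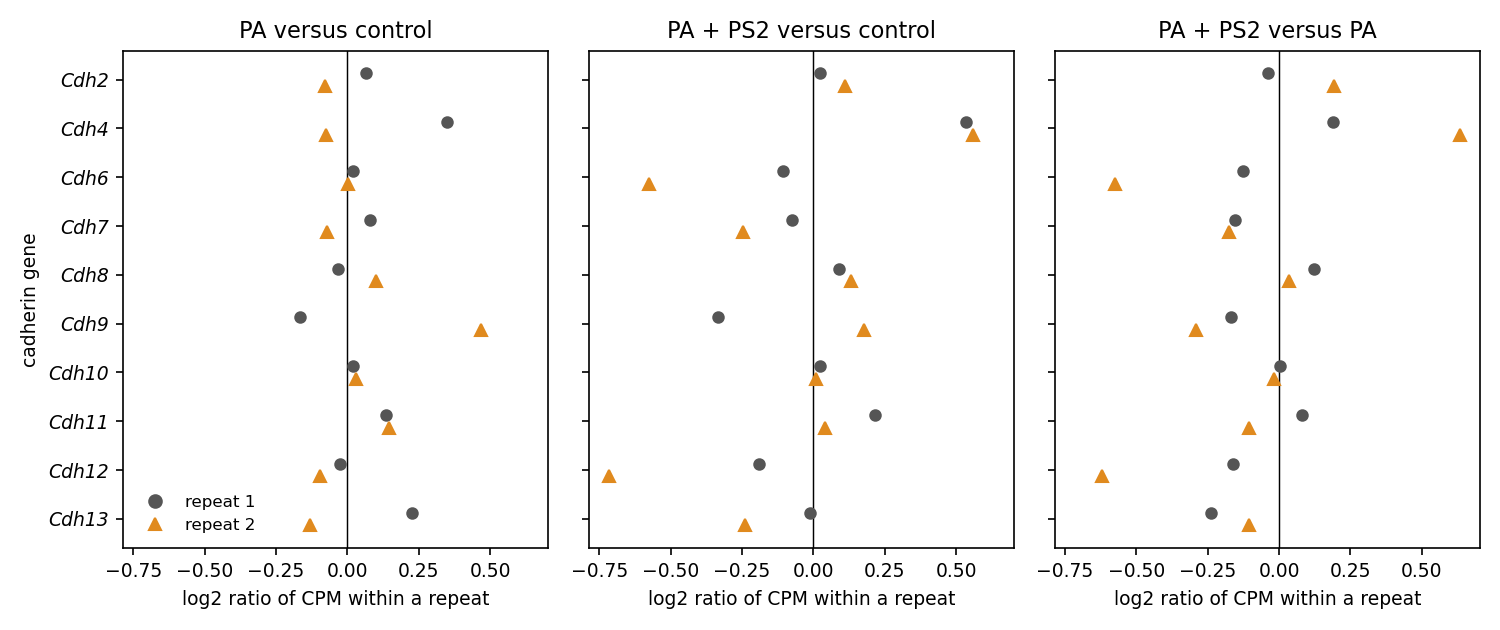
Log2 ratio of CPM between groups within repeat 1 (circles) and within repeat 2 (triangles) for each cadherin, 1 panel a comparison, with a line at no difference. In the middle panel Cdh4 lies at 0.54 and 0.56, while Cdh12 (-0.19 and -0.72) and Cdh6 (-0.11 and -0.58) lie below 0 and farther in repeat 2.

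PA + PS2 against PA sets the IKVAV cultures with PEDOT-S beside those without it. It shares the PA + PS2 libraries with the comparison before it, so the values below are not a separate line of evidence. Cdh4 was 1.34-fold higher in PA + PS2 than in PA (log2 fold change 0.43, SE 0.17), with within-repeat log2 ratios of 0.19 and 0.64. Its adjusted p was 0.635 without the block and 0.0877 with it. Cdh12 (log2 fold change -0.40, SE 0.18), Cdh6 (-0.33, SE 0.16), Cdh13 (-0.17, SE 0.10) and Cdh7 (-0.16, SE 0.14) were lower in both PA + PS2 libraries than in both PA libraries. With the block their adjusted p ranged from 0.189 for Cdh6 to 0.727 for Cdh7. The groups of Cdh2 (log2 fold change 0.08), Cdh8 (0.08), Cdh9 (-0.22), Cdh10 (-0.01) and Cdh11 (-0.01) overlapped.

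In the same comparison no member passed edgeR's test in either model. Without the block 0% of all genes passed and 1314 had an unadjusted p under 0.05. With it 280 genes passed, 1.62% of those tested (0.225% higher and 1.39% lower), and 2113 had an unadjusted p under 0.05. Cdh4 was the only member under 0.05 unadjusted without the block, and DESeq2 with the block called Cdh4 alone (adjusted p 0.0401). Groups did not overlap for 1 member higher in PA + PS2 (Cdh4) and 4 members lower, beside 16.7% and 18.4% of all genes. Within both repeats 2 members were higher (Cdh4 and Cdh8) and 5 were lower (Cdh6, Cdh7, Cdh9, Cdh12 and Cdh13), beside 26.8% and 27.7% of all genes. The median log2 fold change of the members was -0.09, beside 0.00 over all genes.

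Some cadherins differed more between repeat 1 and repeat 2 than between groups. Cdh9, a type II cadherin known from hippocampal synapses, was at 9.56, 8.53 and 7.59 CPM in repeat 1 of control, PA and PA + PS2, and at 4.68, 6.47 and 5.30 CPM in repeat 2. Every repeat 1 library was above every repeat 2 library. Cdh10 was at 75.7, 76.7 and 76.8 CPM in repeat 1 and at 63.1, 64.4 and 63.5 CPM in repeat 2 in the same order of groups. Cdh8 was at 83.9, 81.9 and 89.2 CPM in repeat 1 and at 64.3, 68.9 and 70.6 CPM in repeat 2. For both genes the gap between the repeats was wider than any gap between groups within a repeat. Cdh6 was also lower in repeat 2 in all 3 groups, though by a log2 ratio of only -0.07 in the control and -0.09 in PA. Cdh2 was the only member higher in repeat 2 in all groups, by log2 ratios of 0.19, 0.05 and 0.28. Thus 4 members were lower and 1 was higher in repeat 2 throughout, beside 19.9% of all genes tested in each direction. What the repeats differ in is not given in the labels, and its part in these values was not tested.

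Cdh6, Cdh9, Cdh10 and Cdh12 lie in this order along mouse chromosome 15, between bases 13028701 (the near end of Cdh6) and 21589533 (the far end of Cdh12) of GRCm38. Cdh8, Cdh11 and Cdh13 share chromosome 8, Cdh7 is on chromosome 1 and Cdh4 on chromosome 2 at chr2:179442431-179899373. Of the genes on chromosome 15, Cdh12 and Cdh6 were lowest in PA + PS2 whereas Cdh10 and Cdh9 overlapped between groups. No 50-base stretch was shared between transcripts of different members. Exons of Cdh8 and Cdh9 overlap antisense genes (Gm15679 by 23 bases and Gm49127 by 224 bases), and those of Cdh12 overlap Gm49685 on the same strand by 198 bases. The strand setting is not stated, and for Cdh12 it would not tell the overlapping genes apart. How the overlaps affected these 3 values was not tested.

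RefSeq's table of start sites (GRCm38.p6) has entries for 6 members. The 250 bases before the start are shown for Cdh10, Cdh6 and Cdh8, which were all lower in repeat 2, and whose windows hold no annotated exon. They run 5′ to 3′ on the gene's strand, with CG pairs in capitals. The window of Cdh10 (chr15:18820079-18820328, plus strand) lies inside the longer GENCODE model of the gene, that of Cdh6 is chr15:13173676-13173925 (minus strand) and that of Cdh8 is chr8:99416472-99416721 (minus strand).
Cdh10: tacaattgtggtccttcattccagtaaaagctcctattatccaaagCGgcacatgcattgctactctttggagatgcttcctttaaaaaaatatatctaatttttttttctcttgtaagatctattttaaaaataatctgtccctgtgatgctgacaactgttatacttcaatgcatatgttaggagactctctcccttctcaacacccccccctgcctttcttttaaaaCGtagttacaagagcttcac
Cdh6: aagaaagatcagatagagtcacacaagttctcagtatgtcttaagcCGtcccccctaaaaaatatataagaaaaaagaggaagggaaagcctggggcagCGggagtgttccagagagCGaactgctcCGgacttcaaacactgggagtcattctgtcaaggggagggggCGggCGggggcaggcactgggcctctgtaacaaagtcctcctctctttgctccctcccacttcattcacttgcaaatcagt
Cdh8: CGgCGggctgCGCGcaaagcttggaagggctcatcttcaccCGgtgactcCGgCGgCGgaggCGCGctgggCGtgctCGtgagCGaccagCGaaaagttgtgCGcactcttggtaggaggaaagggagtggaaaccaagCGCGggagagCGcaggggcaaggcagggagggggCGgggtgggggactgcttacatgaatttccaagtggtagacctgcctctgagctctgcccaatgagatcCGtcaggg
The windows differed in base composition. Cdh10 had 2 CG pairs at a GC content of 36.8%, Cdh6 had 6 at 51.2%, and Cdh8 had 20 at 64.4%. Over the 32851 windows of the table the median was 6 CG pairs and 52.4% GC, and 18.8%, 49.6% and 82.1% of windows had fewer CG pairs than Cdh10, Cdh6 and Cdh8.

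The genes whose profile over the 6 libraries lay closest to those of Cdh4 and Cdh12, the members with the highest and lowest fold change in PA + PS2 against control, were found among 10775 genes of at least 5 CPM. For Cdh4 these were Auts2 (Euclidean distance 0.14 on centred log2 CPM, r = 0.98), Rprm (0.17, r = 0.97) and Kif26a (0.19, r = 0.97). For Cdh12 they were Spata13 (0.12, r = 0.98), Slc25a10 (0.13, r = 1.00) and Adam9 (0.16, r = 0.97). These are descriptions over 6 libraries that share groups and repeats.

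Of 10 other classical and related cadherins listed, 4 passed the filter. Their means over the 6 libraries were 7.17 (Cdh18), 11.8 (Cdh20), 11.5 (Cdh22) and 22.9 CPM (Cdh24). The lowest members stood at 7.02 (Cdh9), 12.6 (Cdh7) and 19.2 CPM (Cdh12). The listed genes that the filter left out were scarce, with at most 15 counts in any library. Among them were the epithelial Cdh1 (0 to 3 counts) and the endothelial Cdh5 (0 to 10 counts). Cdh20, a type II cadherin on chromosome 1, was at 13.9 and 15.0 CPM in the control, 12.3 and 14.0 CPM in PA, and 8.64 and 7.15 CPM in PA + PS2. Both PA + PS2 libraries were well below the other 4, and the means were 14.5 ± 0.778, 13.2 ± 1.23 and 7.89 ± 1.06 CPM (SD, n = 2 each). The fitted value in PA + PS2 was 0.55 times the control (log2 fold change -0.87, SE 0.17), with within-repeat ratios of -0.69 and -1.07. This difference was larger than that of any of the 10 members.

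Without the block the adjusted p of Cdh20 in edgeR was 0.446 against the control and 0.411 against PA. With the block Cdh20 fell in both comparisons, at adjusted p 0.0358 against the control and 0.0456 against PA (log2 fold change -0.74, SE 0.16). DESeq2 called it without any block, at adjusted p 0.00482 and 0.0269. With the block, DESeq2 gave adjusted p 0.00476 against the control and 0.0297 against PA, and edgeR with the stricter filter gave 0.0606 and 0.0676. A fit of only the 2 groups compared, with the block, gave 1.49e-04 against the control and 0.130 against PA. Over 24 settings, which include leaving out each library, the log2 fold change ran from -1.10 to -0.67 against the control. Against PA it ran from -0.95 to -0.53. In both comparisons the edgeR call of Cdh20 with the block was kept in some fits that left out 1 library and lost in others. The window before its RefSeq start (chr1:104768270-104768519, plus strand, GRCm38.p6) holds 10 CG pairs at 47.6% GC, more CG pairs than 62.2% of all windows, and is shown because Cdh20 differed more between PA + PS2 and control than any of the 10 members.
Cdh20: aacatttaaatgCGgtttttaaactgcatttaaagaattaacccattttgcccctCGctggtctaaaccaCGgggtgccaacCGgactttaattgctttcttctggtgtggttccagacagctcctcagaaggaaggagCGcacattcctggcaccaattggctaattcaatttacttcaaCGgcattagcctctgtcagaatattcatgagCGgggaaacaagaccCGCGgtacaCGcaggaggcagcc
Cdh24, the most abundant cadherin of this list, was at 25.0 and 19.7 CPM in the control, 22.3 and 20.96 CPM in PA, and 28.0 and 21.4 CPM in PA + PS2, with overlapping groups.

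Of 11 catenins and other proteins linked to the cadherin tail, directly or through other proteins, 10 were tested. Ctnna1, the alpha-catenin of most non-neuronal cells, was at 29.6 and 35.7 CPM in the control, 35.2 and 38.0 CPM in PA, and 24.4 and 23.0 CPM in PA + PS2. Both PA + PS2 libraries were the lowest of the 6. Against PA it fell with the block (log2 fold change -0.62, SE 0.11, adjusted p 0.0178), while without the block the adjusted p was 0.365. DESeq2 called it without a block (adjusted p 0.00662), and the stricter filter with the block kept the call (0.0331). The edgeR call with the block was kept in some fits that left out 1 library and lost in others. Over 24 settings the log2 fold change against PA ran from -0.76 to -0.49. Against the control the log2 fold change was -0.46 (SE 0.11 with the block, adjusted p 0.0962).

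The most abundant catenins overlapped between groups. Ctnnb1 (beta-catenin) was at 372 and 449 CPM in the control, 376 and 426 CPM in PA, and 396 and 491 CPM in PA + PS2. Ctnnd2, the delta-catenin of neurons, was at 265 and 323 CPM in the control, 279 and 312 CPM in PA, and 296 and 342 CPM in PA + PS2. In both genes repeat 2 was above repeat 1 in every group. The list's median log2 fold change was -0.02 against the control and -0.05 against PA, with 3 and 5 of 10 genes lower in both PA + PS2 libraries (17.1% and 18.4% of all genes tested) and none higher in both (16.6% and 16.7% of all genes).

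No gene passed either model among the 10 enzymes that mature or cut cadherins, among 10 delta protocadherins, among 13 tested genes of the wider superfamily or among 4 nectins. Adam10, the protease that sheds the outer part of N-cadherin, had a log2 fold change of 0.09 (SE 0.11) in PA + PS2 against control. Clstn1, a calsyntenin, and Fat1, a giant atypical cadherin, stood at 0.01 (SE 0.07) and -0.15 (SE 0.12). Nectin1 and Nectin3, immunoglobulin-type adhesion proteins found beside cadherins at junctions, stood at -0.02 (SE 0.07) and -0.11 (SE 0.16).

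The delta protocadherins, which are adhesion proteins of developing neurons, lay mostly below 0, 9 of 10 against the control, with a median log2 fold change of -0.13. In 5 of 10 both PA + PS2 libraries were below both control libraries, and in none were both above, beside 17.1% lower and 16.6% higher without overlap among all genes tested. The most abundant, Pcdh17 and Pcdh10, stood at log2 fold changes of -0.16 (SE 0.09) and -0.26 (SE 0.08). Pcdh11x, singled out after its values were seen, was at 156 and 137 CPM in the control, 135 and 149 CPM in PA, and 95.2 and 64.2 CPM in PA + PS2. Its PA + PS2 libraries were far below the other 4 (log2 fold change -0.88, SE 0.18), though its adjusted p with the block was 0.0719.

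**Figure D4:**
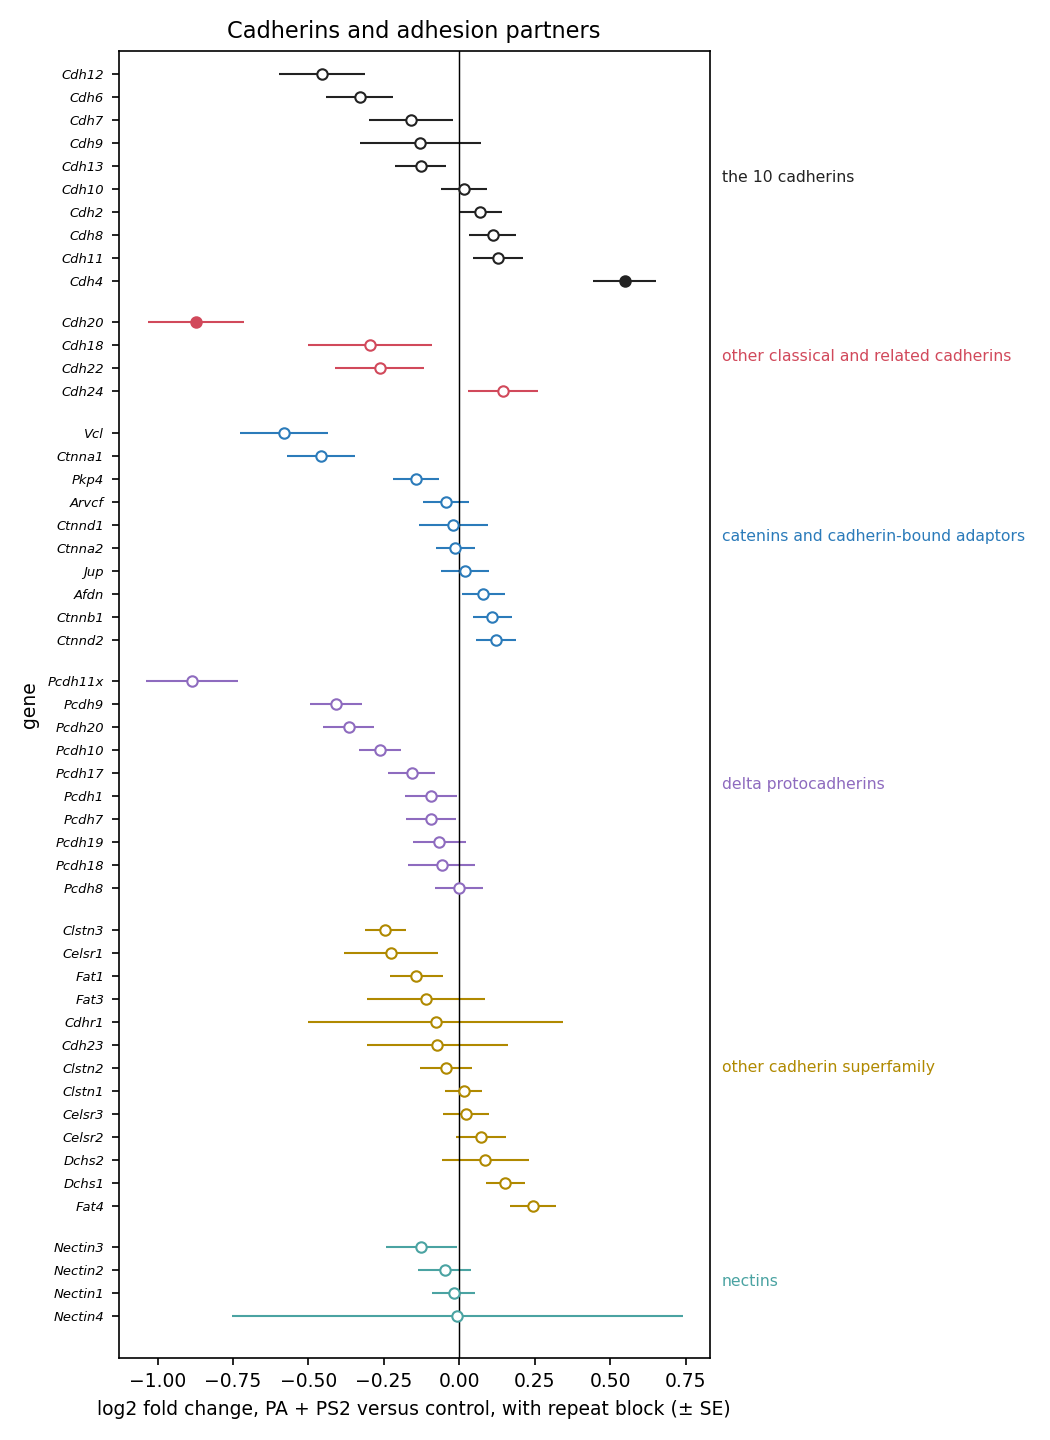
Log2 fold change (± SE) of PA + PS2 against control, with the repeat number as a block, for the 10 cadherins and the tested genes of 5 related lists. Filled symbols have an adjusted p under 0.05 and open symbols do not. Cdh4 at 0.55 and Cdh20 at -0.87 are the filled ones.

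Summed markers of other cells differed between the groups too. With the block, 0.538% of all genes tested were called lower and 0.139% higher in PA + PS2 against control, and 1.39% lower and 0.225% higher against PA. The 8 fibroblast, meningeal and mural markers summed to 135 to 154 CPM in the control, 96.3 to 170 CPM in PA and 39.4 to 98.7 CPM in PA + PS2, none of them at 0, and 2 of 8 fell with the block in PA + PS2 against PA. The 6 astrocyte markers summed to 44.1 to 99.3, 56.1 to 188 and 29.3 to 42.0 CPM in the same order, and 4 of 6 fell in that comparison. The 8 progenitor markers summed to 279 to 452, 325 to 562 and 214 to 242 CPM, of which 1 fell against the control and 2 fell against PA. The oligodendrocyte lineage markers summed to 59.0 to 108, 57.4 to 152 and 58.0 to 86.9 CPM, with Mag at 0 in 1 control library, and 2 of 8 rose and 1 fell with the block against either group. Their part in the lower values of Cdh6, Cdh12, Cdh20 and Ctnna1 was not tested.

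Summed neuron markers overlapped between the groups. The 5 neuron markers summed to 4760 to 5173 CPM in the control, 4819 to 5033 CPM in PA and 4756 to 5111 CPM in PA + PS2. The 5 excitatory markers summed to 873 to 930, 917 to 942 and 972 to 992 CPM, with PA + PS2 above both other groups. Of these, Neurod6 alone was higher in both PA + PS2 libraries than in the other 4. The 6 inhibitory markers summed to 709 to 795, 664 to 849 and 658 to 704 CPM, with PA + PS2 below the control, and 1 of 6 (Gad1) fell with the block against PA. Gad1, Gad2 and Slc32a1 were lower in both PA + PS2 libraries than in the other 4, while Dlx1, Dlx2 and Lhx6 overlapped, at log2 fold changes against the control of 0.05, 0.34 and 0.15. Endothelial and microglial markers were near 0, at sums of at most 10.2 and 4.48 CPM, with Cldn5, Tek, Cx3cr1 and P2ry12 at 0 in at least 1 library. None of these marker genes passed without the block, and their part in the values of Cdh4 was not tested.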

How the data were processed

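RNA was sequenced from 6 libraries of mouse cortical neurons in 3 groups of 2. Each library's deposited file lists Ensembl gene identifiers with unnormalised read counts, which were whole numbers throughout. Per the submitters' processing notes, mm10 was the build, and the tools included DESeq2 1.14.1, HTSeq 2.0.2, STAR 2.7.5 and cutadapt 4.2. Neither the annotation release nor the strand setting is given in the sources used here. Exon lengths and coordinates came from GENCODE M21 on GRCm38 (mm10), where 54165 of the 54232 gene identifiers had coordinates. Symbols came from a separate list of gene names, which held 54079 of the identifiers. Upstream sequences came from RefSeq on GRCm38.p6.

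Counts were scaled by TMM and tested in R 4.3.3 with edgeR 4.0.16 (filterByExpr for low counts, then the quasi-likelihood F test with robust settings in a single model of all 6 libraries). The 17299 genes kept were adjusted together by Benjamini-Hochberg, and genes with an adjusted p under 0.05 were called. A standard error (SE) is the size of the log2 fold change divided by the square root of F. The biological coefficient of variation was 16.7% with 3 residual degrees of freedom, and 9.57% with 2 residual degrees of freedom when the repeat number was a block. Same-numbered repeats deviated together, with correlations of their deviations across genes of 0.35, 0.36 and 0.21 for the 3 pairs of groups. This pairing comes from the data, since the labels name no shared litter, animal or day. The scripts were tested on simulated data.

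The 10 members and the gene lists were chosen with earlier results of these data known. All 10 members are named in each comparison. From each of the other lists, genes past the threshold in either model were named, up to the 4 with the largest changes, and the 2 with the highest mean CPM where fewer than 2 passed, except for 1 enzyme that is not reported here. The alternatives were RLE factors, library totals, no filter, a minimum of 50 counts in 2 libraries, limma-voom (limma 3.58.1), DESeq2 1.42.0, the legacy quasi-likelihood test, fits of 2 groups, the repeat block with several of these, and leaving out each library.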

Additional observations from a re-analysis of the deposited data

How the results depend on the processing

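The number of the 10 members called, which leaves out Cdh20, was 0 in PA against control under all settings tried, and 0 without the repeat block in the other comparisons. In PA + PS2 against control it was 1 with the replicate block (Cdh4), beside 0.676% of all genes called. It was 1 with the replicate block in DESeq2 (Cdh4), beside 1.61%. With the replicate block over only the 2 groups compared it was 3 (Cdh4, Cdh6 and Cdh12), beside 5.07%. In PA + PS2 against PA it was 1 with the replicate block in DESeq2 (Cdh4), beside 2.1% of all genes. The number also moved when 1 library was left out. Such a fit left 1 library in a group, whose spread was taken to be that of the others, so its calls are not counted here. Why the calls moved was not tested.

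Of 720 fold changes of members under 24 settings, 686 lay within 1 SD of the reported value. In 71 the sign differed, in none for a value past the threshold. That SD comes from the same 6 libraries that the settings reuse, so the count within 1 SD says little about stability. For Cdh4 in PA + PS2 against control, the reported log2 fold change without the block was 0.55. It was 0.32 without PA + PS2 repeat 2 and 0.77 without control repeat 2. With 2 libraries a group and few residual degrees of freedom, differences of the size seen for Cdh7 or Cdh13 were too small to be resolved.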
